A study of Homo sapiens with 4 samples.

Results

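The regions described here are the subtelomeric ends of the autosomes, measured in HUDEP-2 cells by bisulfite sequencing of the whole genome. HUDEP-2 is an established human line of erythroid precursors whose haemoglobin is mostly of the adult type. The members are CpGs on chromosomes 1 to 22 with at least 10 reads in all 4 libraries that lie within 1 Mb of the first or last such CpG of their chromosome. They were pooled into 10 kb windows counted inward from that CpG, and windows with at least 10 CpGs were kept. This gave 3392 windows at 44 ends, of 266845 windows on the autosomes, and 512142 of the 513363 CpGs within 1 Mb of an end. The other 263453 windows are called the interior. The rule uses no measured methylation value, but it was chosen with earlier results of these data known.

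There were 4 groups with 1 library each, all from the same line. The library called NonDiff came from untreated, non-differentiated cells. The others came from cells that spent 4 days in the growth stage of differentiation and then 2 days in the maturation stage. These received 0.1% DMSO alone (DMSO), an inhibitor of DNMT1 (DNMT1i) or an inhibitor of EED (EEDi), both inhibitors in 0.1% DMSO and added from the expansion stage on. Doxycycline was in the medium of all 4 cultures, and the labels describe the inhibitor-treated cells as having more fetal haemoglobin. Methylation data hold no marker expression, so the cell type was not checked. The compounds' names and doses are not given in the sources used here. The DMSO library therefore differs from NonDiff in both differentiation and solvent, and these cannot be told apart. With 1 library per group there is no spread between replicates, so a test below compares the reads of a pair of libraries, not the conditions. A methylation level is methylated reads over all reads of a set of CpGs, in percent, and intervals are 95% Wilson intervals that cover counting error only.

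Subtelomeres are the stretches between the terminal telomere repeat and the unique sequence of a chromosome arm. They are mosaics of blocks copied between chromosome ends, hold CpG-rich repeats next to the telomere from which telomeric RNA can be transcribed, and further in pass into gene-rich DNA. DNMT1 copies CpG methylation onto newly replicated DNA, and EED belongs to PRC2, a Polycomb complex that methylates histone H3.

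The label was checked against the reference. The outermost sequenced kilobase of an end held 20 or more copies of TTAGGG or its complement CCCTAA at 19 of 39 ends. The other 5 ends, the first ends of the acrocentric chromosomes 13, 14, 15, 21 and 22, follow 5010000 to 17000000 unsequenced bases in hg38 and are set apart for that reason. They held no copy in that kilobase, but copies were found at only 29 of the 39 ends. They are called acrocentric first ends and the 39 others telomeric ends, which hold 3228 windows. The distance from the outermost CpG to the edge of the sequence had a median of 843 bases at the telomeric ends and reached 66232 bases at 3q. Windows with 20 or more copies on either strand made up 0.855% of end windows and 0.0144% of interior windows.

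The following stretches of the hg38 plus strand are shown to set local levels beside the wider values. Capitals mark each CG. None lies in an annotated gene or exon of GENCODE 44. The first, chr4:10177-10426, spans the junction of the telomere repeat of 4p with the sequence next to it. The next, chr18:10788-11037, opens the outermost window of 18p, and chr5:181449274-181449523 lies in a 5q window. Both of these windows kept a high share of methylation in DNMT1i. The fourth, chr1:248621807-248622056, lies in the end window with the lowest kept share among windows of 20 or more CpGs that stood at 50% or more in NonDiff, and chr17:127662-127911 lies in the end window called in the differentiation comparison.
4p: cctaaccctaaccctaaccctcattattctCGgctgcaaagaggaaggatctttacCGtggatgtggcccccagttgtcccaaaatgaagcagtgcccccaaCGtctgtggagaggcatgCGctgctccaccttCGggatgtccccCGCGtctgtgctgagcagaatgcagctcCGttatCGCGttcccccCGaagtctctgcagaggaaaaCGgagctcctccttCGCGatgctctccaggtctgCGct
18p: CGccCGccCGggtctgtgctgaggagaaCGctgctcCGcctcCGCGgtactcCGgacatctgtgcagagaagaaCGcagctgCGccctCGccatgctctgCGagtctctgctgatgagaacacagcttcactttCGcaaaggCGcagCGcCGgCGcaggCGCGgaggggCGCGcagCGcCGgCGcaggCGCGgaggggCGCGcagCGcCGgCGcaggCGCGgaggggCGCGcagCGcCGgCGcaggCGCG
5q: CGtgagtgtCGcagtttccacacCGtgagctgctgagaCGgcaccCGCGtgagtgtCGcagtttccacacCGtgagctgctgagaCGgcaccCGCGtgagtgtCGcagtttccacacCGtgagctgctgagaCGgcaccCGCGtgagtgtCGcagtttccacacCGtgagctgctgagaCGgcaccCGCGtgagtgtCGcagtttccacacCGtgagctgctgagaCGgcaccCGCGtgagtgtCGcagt
1q: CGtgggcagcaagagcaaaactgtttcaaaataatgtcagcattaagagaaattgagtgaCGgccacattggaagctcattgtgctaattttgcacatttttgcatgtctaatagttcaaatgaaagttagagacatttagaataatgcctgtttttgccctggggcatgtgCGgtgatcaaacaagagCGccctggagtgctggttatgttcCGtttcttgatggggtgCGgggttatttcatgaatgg
17p: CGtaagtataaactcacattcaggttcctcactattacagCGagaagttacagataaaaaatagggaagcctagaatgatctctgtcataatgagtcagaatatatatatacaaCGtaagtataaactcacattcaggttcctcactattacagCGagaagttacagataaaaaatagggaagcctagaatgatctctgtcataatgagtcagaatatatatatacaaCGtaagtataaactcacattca

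These stretches differ in CG content and in level. The 18p stretch held 40 CGs, all shared, at 93.1% in NonDiff, 92.2% in DMSO, 62.8% in DNMT1i and 92.5% in EEDi. The 4p stretch held 15 CGs, 8 of them shared, at 90.8%, 93.1%, 52.9% and 92.1% in the same order. The outermost 4p window as a whole was lower, at 41.3% in DMSO and 13.2% in DNMT1i over 57 CpGs. In the 5q stretch, with 27 CGs of which 10 were shared, the levels were 72.8%, 73.8%, 55.4% and 77.2%. The 1q stretch held 6 CGs, all shared, at 59.5%, 64.7%, 9.30% and 54.7%. The 17p stretch held 5 CGs, all shared, at 31.3%, 15.9%, 2.74% and 23.6%. Mean coverage of these CGs was 12.6 to 25.0 reads.

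In each library the ends were more methylated than the interior. Over the 3392 end windows the level was 72.3% in NonDiff, 71.3% in DMSO, 24.0% in DNMT1i and 70.6% in EEDi. In the interior the levels were 61.6%, 60.1%, 16.7% and 59.1%. End windows hold more CpGs, with a median of 145 shared CpGs against 72, so the interior was reweighted to the CpG numbers of the end windows in 6 classes, here called the matched interior. Ends stood above it by 5.25 points in NonDiff, 5.64 in DMSO, 4.75 in DNMT1i and 5.61 in EEDi. At the 39 telomeric ends alone, levels were 73.1%, 72.0%, 24.2% and 71.4%. Set against matched windows of the same chromosome, ends were higher on 19 of 22 chromosomes in DMSO, 20 in DNMT1i and 18 in each of the other 2 libraries.

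The gap depended on how many CpGs a window held. In DMSO, end windows of 320 or more CpGs stood at 77.8%, against 66.5% in the interior. The 291 interior windows of this class had a mean of 86.8 reads per CpG in DMSO, against 25.3 at the 100 end windows. With each CpG given equal weight, the levels were 77.5% at ends and 65.2% in the interior. The median windows stood at 77.7% and 69.6%. Windows of at least 160 and under 320 CpGs stood at 75.2% against 68.2%, and those of at least 80 and under 160 at 68.3% against 64.8%. At 40 to 79 CpGs the values were 52.2% and 52.5%. Below 80 CpGs the result differed between kinds of end. At the telomeric ends alone the DMSO level was 55.1% at 40 to 79 CpGs, and 63.1% at 10 to 19 CpGs against 50.9% in the interior, whereas all ends stood at 49.4% in that last class. In windows of 20 to 39 CpGs NonDiff stood at 31.1% and the DMSO library at 40.3%, a difference that falls in the class holding a pair of over-covered 1p windows described below. With each CpG given equal weight, all ends in this class stood at 55.6% in NonDiff and 55.0% in DMSO. The interior then stood at 43.7% and 42.9%.

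**Figure D1:**
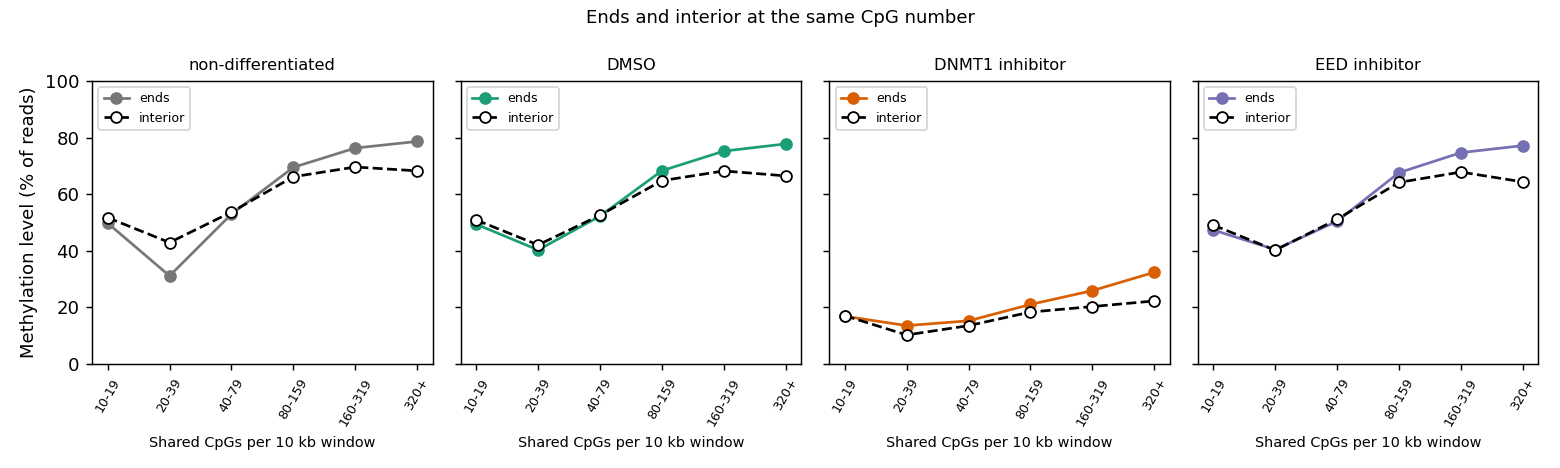
Methylation level (vertical axis, % of reads) against the number of shared CpGs per 10 kb window (horizontal axis) for ends (filled points) and interior (open points), 1 panel per library. In DMSO the lines meet at 40 to 79 CpGs, 52.2% and 52.5%, and part to 77.8% and 66.5% at 320 or more. In that last class, mean coverage in DMSO was 25.3 reads per CpG at ends and 86.8 in the interior.

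Ends and interior also differed in sequence and coverage. Median GC content was 47.8% in end windows and 39.7% in the interior, and protein-coding genes covered 57.2% and 45.7% of their bases. Of the reference CpGs, 71.3% were shared by the 4 libraries at ends and 85.7% in the interior, so a larger part of the ends was not measured. Mean coverage of a shared CpG at ends was 26.1 to 27.2 reads by library. Matching on gene overlap as well left the DMSO gap at 5.04 points, and matching on GC content at 5.20.

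Single CpGs showed the same order. In DMSO, 62.0% of end CpGs were at 80% or more, against 46.4% of interior CpGs, and 13.3% against 21.8% were at 20% or less. In DNMT1i 0.851% of end CpGs and 0.271% of interior CpGs were at 80% or more. The share at 20% or less rose to 48.7% at ends and 65.6% in the interior. Fewer end CpGs than interior CpGs thus stood at low levels in that library.

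The 44 ends spread widely. In DMSO the median end stood at 69.5%, with a standard deviation over ends of 14.7 points. The highest were 2q at 84.2% (95% interval 84.1 to 84.4), 16q at 81.4% (81.3 to 81.6) and 17q at 81.3% (81.2 to 81.5). The lowest were 15p at 32.2% (31.4 to 33.0), 3p at 33.6% (33.4 to 33.8) and 22p at 39.3% (39.1 to 39.5). 16q and 17q overlap within counting error, whereas 2q lies above both. Among the low ends, 21p at 39.5% (39.1 to 39.8) overlaps 22p. 15p, 21p and 22p are acrocentric first ends. 3p is a telomeric end of few CpGs, with a mean of 60.4 shared CpGs per window against 153.3 at 2q.

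The order of the ends was nearly the same in the 3 libraries without DNMT1i. 2q stood at 85.1% in NonDiff, 84.2% in DMSO and 83.8% in EEDi, and 3p at 33.9%, 33.6% and 31.4%. In DNMT1i 2q fell to 24.1% and 3p to 10.0%. Over all 44 ends that library ranged from 10.0% at 3p to 32.0% at 18q, the highest end there, which stood at 79.8% in DMSO. Over the 39 telomeric ends, which share each library, the DMSO level and the mean CpG number per window had Pearson's r of 0.767 and Spearman's rho of 0.706, as a description. Of these ends, 27 stood above their matched interior in DMSO, by up to 17.6 points at 2q, and 12 stood below, by up to 20.4 points at 3p.

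**Figure D2:**
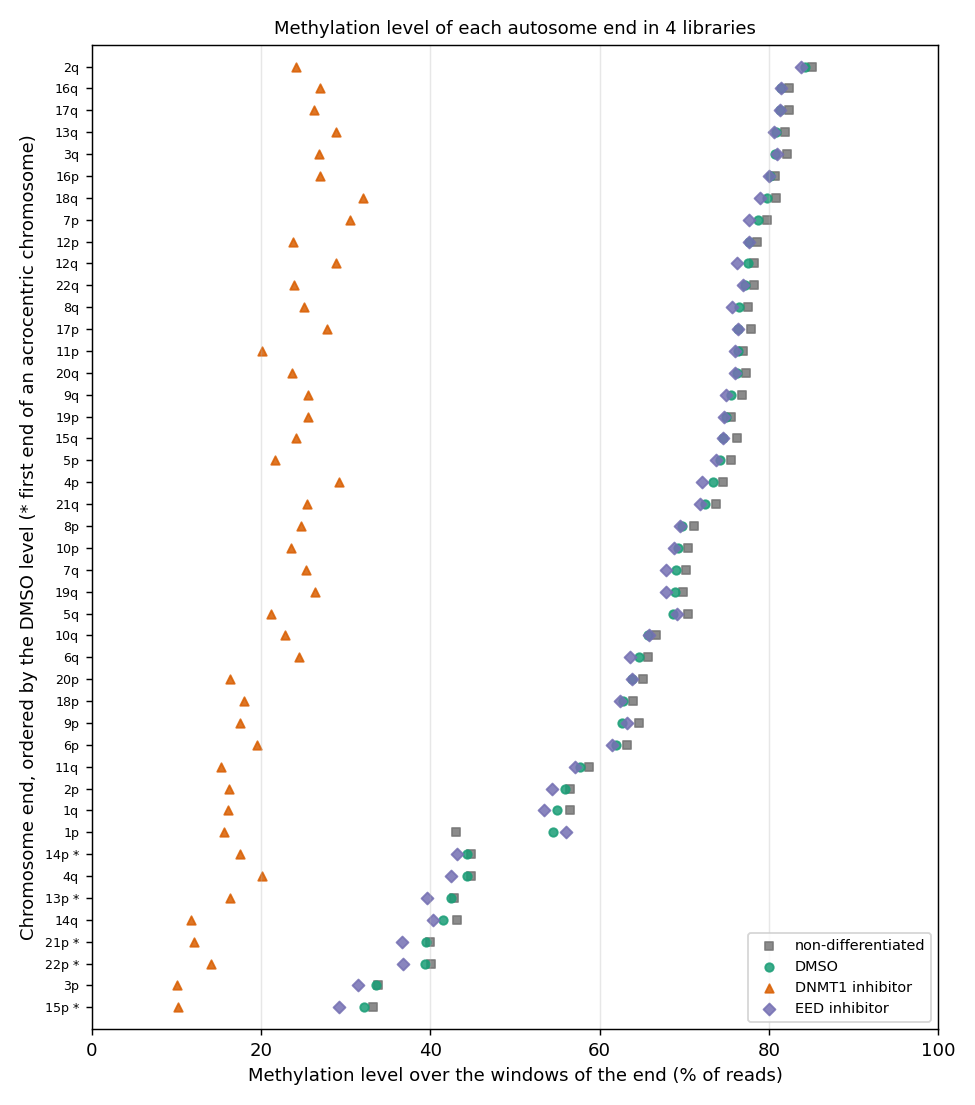
Methylation level (horizontal axis, % of reads) of each of the 44 autosome ends (vertical axis, ordered by DMSO), with 1 symbol per library and asterisks on the acrocentric first ends. The DNMT1i symbols lie between 10.0% and 32.0%, at each end left of the other 3 libraries, and 1p shows a lone shift of the NonDiff symbol to 43.0%.

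Long-arm ends were higher than short-arm ends. The telomeric p ends together stood at 69.4% in DMSO and the q ends at 74.1%, and in DNMT1i at 22.7% and 25.4%. Chromosome by chromosome the order was mixed: q was above p in 10 of the 17 chromosomes with both ends telomeric. Without a pair of over-covered 1p windows described below, a choice made after seeing the data, it was 9 of 17, and the p ends stood at 69.7% in DMSO.

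The acrocentric first ends, which lie on short arms near ribosomal DNA and centromeric satellites, were among the lowest, in the same DMSO range as the telomeric ends 3p, 14q and 4q. Their 164 windows stood at 40.02% in NonDiff, 39.3% in DMSO, 13.7% in DNMT1i and 36.7% in EEDi. In DMSO this was 18.3 points below their matched interior, a value to which 22p contributed 3776 CpGs. Singly, the difference was -20.7 points at 22p, -20.1 at 15p and -13.6 at 21p, but -6.52 at 13p and -4.70 at 14p. Against matched windows of the same chromosome it was -22.1, -22.9 and -9.07 at 22p, 15p and 21p. At 13p and 14p it was then above 0, at 1.17 and 3.71. Mean coverage there was 45.9 to 50.7 reads, above the 25.8 to 26.9 reads of the telomeric ends, and ranged in DMSO from 19.98 reads at 13p to 54.4 at 22p. The part of coverage in these levels was not tested. Counts were thin at some ends: 14q held 5 windows with 278 shared CpGs, 15p 10 windows and 4q 31, and their values rest on those.

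Along the telomeric ends the level was lowest at 50 to 100 kb and higher further in. In the outermost 10 kb, with 32 windows and 2158 CpGs, the DMSO level was 64.7% against 59.0% in the matched interior. At 50 to 100 kb it was 60.6%, a difference of -1.94 points from the matched interior. Without its 5 windows over 2 times the mean coverage in any library, left out after values were seen, it was 62.3%. It was still the lowest of the distance classes, with a difference of -1.08 points from a matched interior that kept such windows. At 400 to 600 kb it was 74.2%, or 7.66 points above. Protein-coding genes covered 2.14% of the bases in the outermost 10 kb, 27.3% at 10 to 50 kb, 33.7% at 50 to 100 kb and 67.2% at 400 to 600 kb. Within the outer 100 kb the share of coding bases was higher further in while the level was lower, and at 400 to 600 kb both were higher. The part of gene content in the profile was not tested. In the outermost 10 kb 38.1% of reference CpGs were shared, against 74.6% at 400 to 600 kb, so the outermost values describe a minority of its CpGs. The matching counted shared CpGs, and in the interior 85.7% of reference CpGs were shared. The outermost windows and their matched interior were therefore not alike in reference CpGs.

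**Figure D3:**
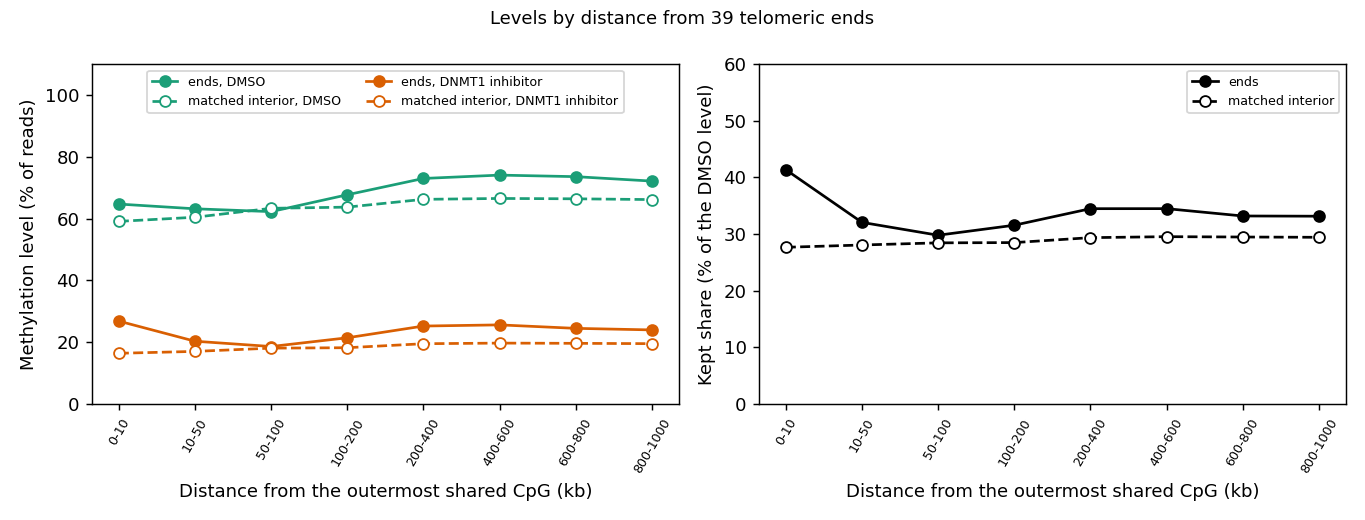
Left, methylation level (% of reads) in DMSO and in DNMT1i, and right, kept share (DNMT1i level as % of the DMSO level), both against distance in kb from the outermost shared CpG of 39 telomeric ends. Filled points are ends, without windows over 2 times a library's mean coverage, and open points the matched interior, which keeps such windows. The kept share is highest in the outermost 10 kb, 41.4% against 27.7%.

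The DNMT1i comparison concerns how much methylation is left when the maintenance enzyme is inhibited. The level at ends fell by 47.3 points from DMSO, against 46.4 in the matched interior. A two-sided Fisher's exact test per window, with Benjamini-Hochberg adjustment over all 266845 windows, was used, and a window was called where the levels were 10 points or more apart and the adjusted p fell below 0.01. It called 3384 of the 3392 end windows lower, beside 99.9% of all windows, and none higher. When each window's reads were divided by its CpG number, 2506 were called lower, or 73.9%, beside 70.1% of all windows. All 3392 had a lower level with the inhibitor. At 25 points or more 3182 end windows, or 93.8%, were lower, beside 91.6% of all windows. The lower levels were thus found in nearly every window, at ends and elsewhere. The largest called fall was in an 11p window of 15 CpGs at 11:511502-521501, from 90.1% to 7.04% (adjusted p = 3.4e-73, Fisher's exact test). Next came windows of 11q in NCAPD3, which encodes a condensin II subunit, with falls of 74.8 and 74.5 points.

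What differed between regions was the share of methylation kept, that is the DNMT1i level as a percentage of the DMSO level. Ends kept 33.6%, their matched interior 29.3%. When windows were matched on CpG number and on the level in NonDiff, without windows over 2 times the mean coverage, the ends kept 33.6% and the interior 29.9%. The ends also exceeded their matched interior one by one, at 34 of 39 telomeric ends.

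The kept share ranged from 25.6% at 20p, 26.3% at 11p and 26.4% at 11q to 45.5% at 4q, 40.1% at 18q and 39.8% at 4p, the extremes among telomeric ends. 4q stood at 44.9% in NonDiff, 44.4% in DMSO, 20.2% in DNMT1i and 42.4% in EEDi. 4q holds the annotated DUX4 gene, which belongs to the D4Z4 repeat. Without its 3 windows over 2 times the mean coverage the kept share of 4q was 46.8%. The highest kept shares thus came from ends of middling or low as well as high methylation.

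Single windows kept far more in places. Among windows at 50% or more in NonDiff with at least 20 CpGs, 75 of 2727 end windows, or 2.75%, kept 50% or more, against 254 of 150717 interior windows, or 0.169%. Within 50 kb of a telomeric end these were 8 of 84, or 9.52%. These shares were not matched on CpG number. Over all windows, the median was 145 shared CpGs at ends and 72 in the interior. The kept share of all interior windows was 24.3% at 20 to 39 CpGs and 33.4% at 320 or more. The part of CpG number in the contrast was not tested. The window with the highest kept share, at 5:181447035-181457034 about 20 kb from the 5q end, held 24 shared CpGs of 376 in the reference. It stood at 85.5%, 85.1%, 62.8% and 87.6% in the NonDiff, DMSO, DNMT1i and EEDi libraries, a kept share of 73.8%. The outermost 18p window, at 18:10788-20787, stood at 90.5%, 89.9%, 60.04% and 91.3%, and kept 66.8%. The window that kept the third most, 66.1%, lies at 4:189303961-189313960, 890 kb from the 4q end. No protein-coding gene overlaps any of these windows.

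At the other extreme of the same set of windows, the window at 1:248615580-248625579 on 1q, which overlaps the olfactory receptor gene OR2T11, stood at 51.7%, 47.2%, 6.94% and 43.6% and kept 14.7%. A 10q window in ADAM8, a membrane metalloproteinase gene, stood at 70.8% in DMSO and 11.3% with the inhibitor, keeping 15.9%. A 20p window without genes, at 20:730120-740119, kept 16.5%. These 3 windows lay 320 to 670 kb from their ends.

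The outermost windows were themselves diverse. Some of the highest kept shares there were 18p at 66.8%, 21q at 58.6%, 4q at 56.1%, 10p at 53.5%, 15q at 52.8% and 13q at 50.1%. The 21q, 4q and 13q windows hold RPL23AP4, RPL23AP84 and RPL23AP97, pseudogenes of the ribosomal protein gene RPL23A, and the 15q window holds WASH3P and DDX11L copies, all members of families duplicated between chromosome ends. Other copies of the same families kept less: the 2q window with RPL23AP88 kept 17.9% and the 5q window with RPL23AP45 kept 9.34%, the latter with 13 shared CpGs. Reads from near-identical copies can be placed at another end, so values of single copies are uncertain.

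The difference in kept share was smaller between CpGs of equal local density. For this comparison, chosen after earlier values were seen, CpGs at 80% or more in NonDiff were grouped by the number of reference CpGs within 250 bp, itself included. In the interior the kept share was 24.0% at 1 to 2 such CpGs, 34.5% at 11 to 20, 40.97% at 21 to 30, 56.8% at 41 to 60 and 65.8% at 61 or more. At the telomeric ends it was 25.8%, 35.2%, 41.6%, 58.1% and 66.3% in the same classes, higher in each of these. CpGs with 21 or more made up 24.8% of these CpGs at telomeric ends and 6.32% in the interior. When the interior was weighted to the same numbers of CpGs, with only the highest numbers pooled, telomeric ends kept 35.6% and the interior 35.0%.

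In the outermost 10 kb the ends kept 46.6% and the interior at equal density 47.4%. With the interior weighted by the density classes instead, it kept 46.4%, so the order depends on the weighting. In the outermost 10 kb 54.8% of 1114 such CpGs had 21 or more CpGs nearby. These 610 CpGs, with a median of 66 nearby CpGs against 24 in the interior class, stood at 94.3%, 92.8%, 56.7% and 93.5% in the NonDiff, DMSO, DNMT1i and EEDi libraries. They kept 61.1%, and interior CpGs weighted to the same numbers of nearby CpGs kept 62.2%. That interior value rests on a DMSO level of 91.5%, below the 92.0% to 92.6% of the interior classes of 21 or more. The low interior level for 21q given below enters it, so the order of these kept shares is not settled. The 610 CpGs came from 21 ends, and leaving out 1 end at a time moved their kept share only between 60.2% and 61.7%. Of the 18 ends with at least 10 such CpGs, 12 lay above the interior at equal density. For example 18p kept 69.5% against 62.9% and 13q 68.5% against 62.3%, while 21q kept 63.1% against 70.4% and 4q 57.5% against 67.2%. The interior value for 21q rests on a DMSO level of 86.1%, lower than the 92.8% of the interior for 4q. At 4q DNMT1i had 34.6 reads per CpG and DMSO 17.1, and at 21q the DNMT1i coverage of 34.9 was likewise the higher. The part of this in the values was not tested.

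**Figure D4:**
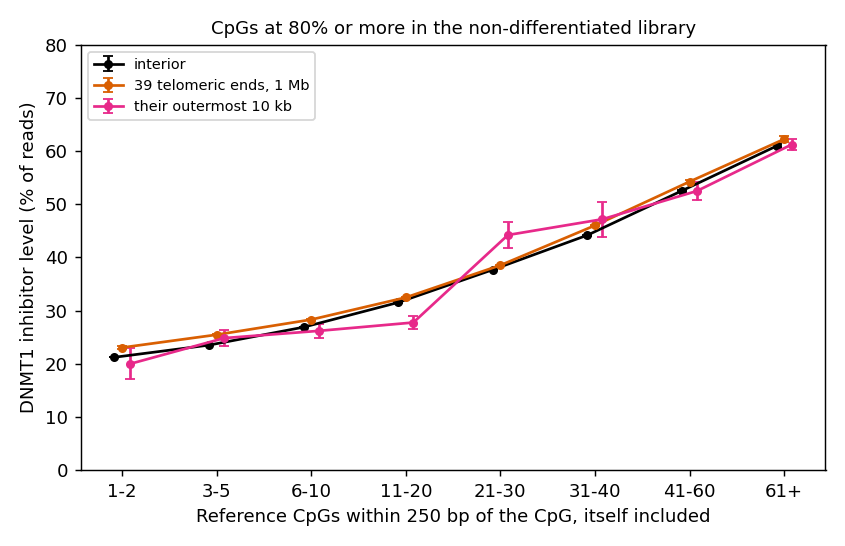
DNMT1i level (vertical axis, % of reads) of CpGs at 80% or more in NonDiff, against the number of reference CpGs within 250 bp (horizontal axis), for the interior, the 39 telomeric ends and their outermost 10 kb. Bars are 95% Wilson intervals, and the interior line climbs from 21.2% in the sparsest class to 60.9% in the densest, where the outermost 10 kb stand at 61.2%.

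The differentiation comparison gave small differences. The ends stood at 71.3% in DMSO and 72.3% in NonDiff, a difference of -1.01 points, against -1.40 in the matched interior. The level was lower in DMSO at 43 of 44 ends, and 1p was the exception. By the same windows test 1 end window was called lower, beside 0.00937% of all windows, and 0 were called higher, beside 0.003%. At an unadjusted p under 0.05, 908 end windows were lower and 81 higher by Fisher's exact test, beside 20.3% and 1.83% of all windows. At 5 points or more 15 were lower and 3 higher, beside 0.968% and 0.0397% of all windows.

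The called window, at 17:126893-136892 and about 10 kb from the first CpG of 17p, holds 55 copies of the telomere motif within the arm and 13 shared CpGs of 189. Its level was 33.3% in NonDiff, 14.3% in DMSO, 2.86% in DNMT1i and 30.5% in EEDi. It was called lower in DMSO than in NonDiff (adjusted p = 0.000425, Fisher's exact test) and higher in EEDi than in DMSO (adjusted p = 0.00171, Fisher's exact test), comparisons that share the DMSO library. Coverage was 16.2 to 19.7 reads per CpG. Dividing a window's reads by its number of CpGs, since one read spans several CpGs, ended both calls. It left too few reads for differences of this size to be called, so it does not decide on them. Only 2 of its CpGs had 20 reads in all 4 libraries, so it could not be tested at that depth. At that depth 1 other end window was called lower in DMSO, the outermost 16p window, at 54.6% in NonDiff and 38.2% in DMSO over 13 CpGs (adjusted p = 0.0016, Fisher's exact test). Over all its 34 CpGs that window stood at 56.8% and 49.2% and was not called. One of the windows that rose by 5 points or more, at 16:170158-180157, holds the adult alpha-globin genes HBA1 and HBA2. It stood at 50.6% in NonDiff, 56.0% in DMSO, 14.8% in DNMT1i and 52.8% in EEDi. HBA1 and HBA2 are near-identical copies, so their separate values are uncertain.

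1p differed from all other ends. Its level was 43.0% in NonDiff, 54.5% in DMSO, 15.6% in DNMT1i and 56.0% in EEDi, so DMSO was 11.5 points higher. This rested on a pair of adjacent windows, at 1:620689-630688 and 1:630689-640688, with 54 CpGs between them and levels of 0.118% to 0.457% over the 4 libraries. Mean coverage there was 1426 and 957 reads in NonDiff and 628 and 415 in DMSO, against medians of 24.2 and 24.9 over the other 42 windows of 1p. The pair took 38.96% of all 1p reads in NonDiff, 22.1% in DMSO, 18.6% in DNMT1i and 19.7% in EEDi. They hold pseudogenes copied from mitochondrial DNA, among them MTND1P23, MTND2P28 and MTCO1P12, and 7.87% and 20.3% of their 50-base words also occur in chromosome M, which was the case in no other end window. Chromosome M was not analysed here, and the part of mitochondrial reads in the coverage of the pair was not tested. Without the pair, 1p stood at 70.3%, 69.8%, 19.1% and 69.7%, and the difference of DMSO from NonDiff was -0.47 points. Over all ends it was then -1.20 points.

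**Figure D5:**
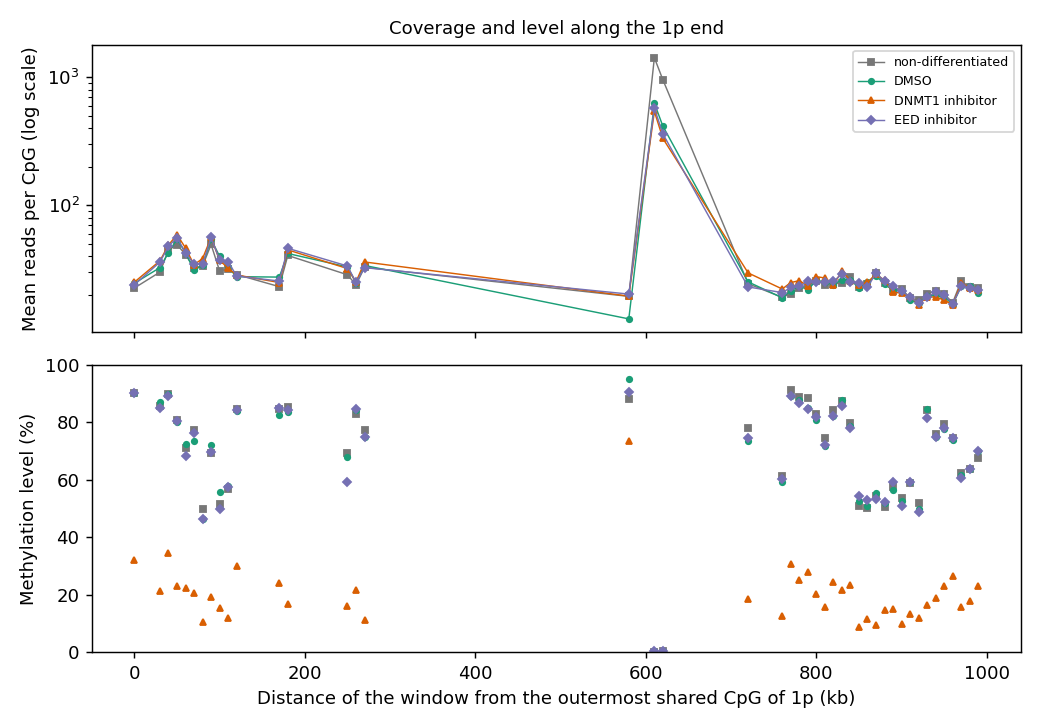
Mean reads per CpG (top, log scale) and methylation level (bottom, %) of each 10 kb window of the 1p end against distance in kb from its outermost shared CpG, 1 symbol per library. A pair of windows at 610 and 620 kb reaches 1426 reads in NonDiff, with levels near 0.

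The EEDi comparison also gave small differences. The level at ends was 70.6% with the inhibitor and 71.3% in DMSO, a difference of -0.72 points, against -0.69 in the matched interior. With each CpG given equal weight it was -0.38 points. The level was lower at 37 of 44 ends, and the largest fall, 3.05 points, was at 15p. The test called 0 end windows lower, beside 0.0525% of all windows, and 1 higher, the 17p window above, beside 0.015%. At an unadjusted p under 0.05, 662 were lower and 237 higher by Fisher's exact test, beside 19.8% and 5.27% of all windows. At 5 points or more 42 were lower and 6 higher, beside 2.34% and 0.37% of all windows. At 25 points 0 were higher, beside 0.000375%. The largest of these falls was in a 12q window at 12:133034821-133044820 holding the zinc finger gene ZNF84, at 66.4% in NonDiff, 66.7% in DMSO, 25.9% in DNMT1i and 57.3% in EEDi. The largest rises outside 17p were in 20p windows holding SOX12 and SCRT2, both transcription factor genes, at 52.8% and 46.4% in DMSO and 59.7% and 53.0% in EEDi.

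Unusual coverage marked some end windows. Mean coverage was over 2 times that of the library in at least 1 library in 47 end windows, or 1.39%, against 1.91% of interior windows, and 26 of the 47 lay at acrocentric first ends. Among telomeric ends they included an 18p window in the pseudogene ROCK1P1 with 131 reads per CpG in NonDiff and a 10q window with 155 to 178 reads, at levels of 29.9% and 29.2% in DMSO. Without these 47 windows the ends stood at 72.0% in DMSO and 6.22 points above their matched interior, and the difference of DMSO from NonDiff was -1.21 points.

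Promoters were the 1000 bp before and 500 bp after a gene's start and needed 5 shared CpGs. They were tested for 545 of the 667 protein-coding genes that start within 1 Mb of an end. A call needed an adjusted p under 0.01 by Fisher's exact test and at least 25 points. In DNMT1i 255, or 46.8%, were lower than in DMSO, beside 43.2% of all 17670 promoters tested, and none were higher. In the differentiation comparison 0 were called in either direction, beside 0% of all promoters, with 44 lower and 41 higher at an unadjusted p under 0.05, beside 11.6% and 6.2% of all promoters. In EEDi 0 were called, beside 0% lower and 0.0113% higher, with 44 and 71 at an unadjusted p under 0.05, beside 9.64% and 11.7%. The median end promoter stood at 30.3% in DMSO and 6.19% in DNMT1i, and the median interior promoter at 27.1% and 5.62%. The largest falls outside chromosome 8 were at ARFRP1 on 20q, which encodes an ARF-related GTPase, from 85.8% to 5.78%, and at CYP2W1 on 7p, a cytochrome P450 gene, from 90.6% to 13.7%.

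The alpha-globin cluster lies in the 16p end, and 4 of its 11 tested neighbourhood promoters were called lower in DNMT1i, beside 43.2% of all promoters, and 7 of the 11 stood under 25% in DMSO. HBZ, the embryonic zeta-globin gene, stood at 62.6% in NonDiff, 58.7% in DMSO, 14.2% in DNMT1i and 62.7% in EEDi. LUC7L, HBQ1 and FAM234A were at 69.0%, 43.9% and 43.8% in DMSO and 25.3%, 12.7% and 12.6% in DNMT1i. The promoter of HBA1 stood at 1.28% in DMSO and 0.345% with the inhibitor, and that of HBM at 0.238% and 0.215%. NPRL3, whose introns hold the cluster's enhancers, was at 23.6% and 6.49%, too low in DMSO for a fall of 25 points. Promoters of this neighbourhood thus range from unmethylated to well methylated within the same end.

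Promoters of gene families that sit at chromosome ends had a wide range of levels. DUX4, a homeobox gene of the D4Z4 repeat, stood at 91.5% in NonDiff, 91.8% in DMSO, 47.6% in DNMT1i and 91.7% in EEDi, with 43.7 to 59.4 reads per CpG. It has near-identical copies, so its value is uncertain. OR4F6, an olfactory receptor gene of 15q, stood at 60.5% in DMSO and 25.4% in DNMT1i, and FRG2B on 10q at 71.9% and 13.5% over 6 CpGs. These 3 were called lower, beside 43.2% of all promoters. Each is the lone tested member of its family, with 9 OR4F genes, 3 FRG genes and 1 DUX4 gene at ends, and the 1 WASH gene there had no tested promoter. Of 13 zinc finger promoters at 4p, 5q and 12q, 0 reached 25 points lower in DNMT1i, but 9 of them stood under 25% in DMSO and could not. All 13 were lower in DNMT1i at an adjusted p under 0.01 by Fisher's exact test, with no minimum difference. The share of all promoters under that rule is not given here. By the same test 465 of the 545 end promoters were lower at an unadjusted p under 0.05. The median of the 13 was 13.3% in DMSO and 4.63% with the inhibitor. ZNF605 was the member furthest apart in the EEDi comparison, at 29.8% in DMSO and 40.1% in EEDi, short of 25 points. The promoters of RTEL1, a helicase that protects telomeres, and EHMT1, a histone H3 lysine methyltransferase, stood at 16.3% and 0.436% in DMSO, too low for a fall of 25 points, and at 2.14% and 0.330% in DNMT1i.

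In a list of blood and other genes at the ends, which also holds ARSA, a lysosomal sulfatase gene, 9 of 15 had a tested promoter and 6 were lower in DNMT1i, beside 43.2% of all promoters. The interferon-induced IFITM2 and IFITM1 stood at 76.7% and 75.3% in DMSO and 14.3% and 16.6% with the inhibitor, and IFITM3 at 59.1% and 14.7%. ELANE, the neutrophil elastase gene, fell from 78.1% to 14.7%, GAS6, a ligand of TAM receptors, from 66.0% to 21.2%, and FANCA of the Fanconi anaemia complex from 45.8% to 10.1%. TYMP, the thymidine phosphorylase gene, stood at 48.7% in NonDiff, 36.7% in DMSO, 16.4% in DNMT1i and 50.9% in EEDi. It did not reach 25 points in any comparison, and the first and last of these share the DMSO library.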

How the data were processed

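Each table deposited by the authors lists CpGs with a coverage count of at least 10 reads and the percent of reads with C and with T, both strands merged, in methylKit layout per the file headers. Methylated counts were recovered from the deposited percent and count by rounding, and all were whole within 0.0005 times the coverage. The submitters' processing notes name Trim Galore 0.6.7, cutadapt 4.1, Bismark, Bowtie2 2.1.0, methylKit and the build hg38. Removal of duplicates is not given in the sources used here. Reads of repeated sequence can go unplaced or be placed on another copy, which could shift levels at ends, and CpGs under 10 reads are missing.

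Mean coverage of a listed autosomal CpG was 27.6, 28.4, 29.4 and 30.2 reads in NonDiff, DMSO, DNMT1i and EEDi. Of the end CpGs, 99.994% lay on a CG of hg38. Windows and promoters were tested by Fisher's exact test on methylated and unmethylated reads in Python 3.11.15 (numba 0.67.0), with Benjamini-Hochberg adjustment over all windows or promoters. On simulated data, 99.5% of 200 windows of 266845 lowered to 60% of their level were recovered in each comparison and 0 unchanged windows were called. Windows of low level were not among the lowered ones. The simulated reads were independent and the libraries differed in nothing else, so these rates hold for that setting only. PCR reads are not independent molecules, and neighbouring CpGs share reads.

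Genes came from GENCODE 44. Named were the 3 highest and lowest ends per measure, the 3 called windows or promoters with the largest difference, the 3 windows with the highest kept share, and listed genes that lie at ends. Windows with the lowest kept share, windows past 5 points, outermost and over-covered windows, the 1p pair and the grouping by local CpG density were chosen after values were seen. The members, rules and lists were chosen with earlier results of these data known. Promoters on chromosome 8 are counted but not described.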

Additional observations from a re-analysis of the deposited data

How the results depend on the processing

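Ends stayed above the matched interior in all 4 libraries under each alternative. The gap, in points for NonDiff, DMSO, DNMT1i and EEDi, was 5.01, 5.46, 4.65 and 5.45 with at least 20 reads per CpG, 6.53, 6.65, 5.03 and 6.51 with unweighted CpG levels, 4.64, 4.86, 4.52 and 4.74 for ends of 0.5 Mb, 5.81, 6.19, 4.90 and 6.23 without the acrocentric first ends, 5.94, 6.32, 4.83 and 6.10 against the same chromosome, and 5.49, 5.87, 4.81 and 5.54 when matched on coverage too. Without chromosomes 10 and 18 it was 4.62 in DNMT1i and 5.64 in EEDi. Coverage at 18p and 18q was 35.3 and 29.3 reads in DMSO and 29.4 and 24.0 in EEDi. At 10q it was 21.9 in DMSO and 27.5 in EEDi. The part of these coverage differences in the levels was not tested. Chosen after seeing the data, the gap was 5.99, 6.22, 4.92 and 6.10 without over-covered windows, 4.66, 5.04, 4.56 and 4.93 when matched on coding genes, and 4.88, 5.20, 4.79 and 4.96 when matched on GC content. Matched on the NonDiff level it was 0.381 in DMSO, 2.79 in DNMT1i and 0.272 in EEDi, where the matching sets the NonDiff gap near 0.

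The differences DMSO minus NonDiff, DNMT1i minus DMSO and EEDi minus DMSO were -0.912, -47.5 and -0.821 with at least 20 reads, -0.800, -47.8 and -0.382 unweighted, -1.21, -46.5 and -0.866 for ends of 0.5 Mb, and -1.21, -47.8 and -0.681 without over-covered windows. Without the acrocentric first ends the last 2 were -47.8 and -0.621, and without chromosomes 10 and 18 the DNMT1i difference was -47.6. For called windows, 5 points gave 15 lower and 3 higher in DMSO and 42 lower and 6 higher in EEDi. At 25 points 0 were lower in DMSO and 0 higher in EEDi. When reads were divided by CpG number both were again 0, with too few reads left to call the 17p differences. At 20 reads 0 were higher in EEDi, since the 17p window then had 2 CpGs. The 1 window lower in DMSO at 20 reads was the outermost of 16p, not that of 17p. Apart from the constructions named, the cause was not tested. No paired analysis was possible because each group has 1 library, and no replicate could be left out.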
